A study of Mus musculus with 6 samples.

Results

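The vacuolar ATPase (V-ATPase) genes described here are the 10 subunit genes Atp6v0c, Atp6v0a1, Atp6v0b, Atp6v0d1, Atp6v1a, Atp6v1b2, Atp6v1c1, Atp6v1e1, Atp6v1h and Atp6ap1, out of 24935 genes in the deposited table. They were taken by gene name. Atp6v0c was chosen from its own difference between these libraries, and the others to ask whether it moved alone, so the fold changes of the 10 genes are given below as a description, with no p-value. The libraries hold mRNA from the left hippocampus of C57BL/6 mice at postnatal day 14. The 3 air-exposed mice were kept in room air, and the 3 hyperoxia-exposed mice were kept in 85% oxygen at normal pressure from P2 to P14, in both cases together with their dams. No transgene, deletion or drug was part of either group, pups of both sexes were used, and the sex behind each library was not known here. Directions follow the group in the name of each deposited column. No gene was altered by design, so no gene checks these names, and were they exchanged, every direction below would be reversed. The paper on these mice gives the mRNA of Atp6v0c and of the glutamate transporter Slc17a7 as higher in hyperoxia, opposite to these columns. Which direction is right was not settled here.

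The V-ATPase is the rotary pump that uses ATP to move protons into lysosomes, endosomes, the Golgi and synaptic vesicles. Its V1 sector lies in the cytosol and hydrolyses ATP on a ring of A and B subunits, and its V0 sector lies in the membrane, where a ring of small proteolipids turns against subunit a and carries the protons. In neurons, the proton gradient it makes drives the loading of transmitter into synaptic vesicles, and in lysosomes it keeps hydrolases active and helps to place the growth kinase mTORC1. V1 and V0 can come apart and join again, and several isoforms of single subunits are specific to tissues.

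Atp6v0c was not the only V-ATPase mRNA that differed between the groups, and many genes outside the pump differed as well. Hyperoxia-exposed mice had less than 50% of the Atp6v0c mRNA of air-exposed mice, and less of the second proteolipid Atp6v0b, of the peripheral stalk subunit Atp6v1g2 and of the central stalk subunit Atp6v1d. Atp6v1b2, the B subunit of the ATP-hydrolysing ring, was higher. The other members changed by at most 0.24 on the log2 scale. Of the 10 members, 2 were higher and 3 lower past the threshold, which is a limma adjusted p under 0.05 over all 17778 genes tested. Over all genes tested, 30.5% passed this threshold, 14.9% higher and 15.6% lower. Without Atp6v0c, 4 of 9 members passed it, 2 higher and 2 lower. Atp6v1g2 and Atp6v1d are not members. Of the 10 other subunit genes tested, 3 passed it, a share near that of all genes. The median log2 fold change, hyperoxia minus air, was −0.17 over the members and −0.01 over all genes tested. After a correction for transcript length and GC content, 5 members were called, 1 higher and 4 lower, but not the same ones. Atp6v1h and Atp6ap1 lost the call, and Atp6v0a1 and Atp6v1c1 gained it as lower. At this setting 14.9% of all genes were called higher and 19.6% lower.

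Promoter sequences from RefSeq (GRCm38.p6) were at hand for 7 of the 10 members. Atp6v1b2, Atp6v1c1 and Atp6v1h were not among them. Shown here are the stretches upstream of the proteolipid genes Atp6v0c and Atp6v0b and of Atp6v1d, whose mRNAs were lower in hyperoxia, and of Atp6v1a, whose groups overlapped. Each is 100 bases of the minus strand, written 5′ to 3′, and capitals mark CACGTG, the core of the sites bound by transcription factors of the TFEB family. The windows are Atp6v0c at chr17:24169703-24169802, Atp6v0b at chr4:117887334-117887433, Atp6v1d at chr12:78861639-78861738 and Atp6v1a at chr16:44139306-44139405.
Atp6v0c: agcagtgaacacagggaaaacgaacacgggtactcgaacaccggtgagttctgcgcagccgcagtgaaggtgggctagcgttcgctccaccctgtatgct
Atp6v0b: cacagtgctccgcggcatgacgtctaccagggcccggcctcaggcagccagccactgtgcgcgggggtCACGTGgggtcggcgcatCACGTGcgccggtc
Atp6v1d: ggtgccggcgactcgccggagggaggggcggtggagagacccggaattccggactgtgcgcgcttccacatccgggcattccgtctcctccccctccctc
Atp6v1a: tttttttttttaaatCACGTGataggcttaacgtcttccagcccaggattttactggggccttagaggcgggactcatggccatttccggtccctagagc

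The motif CACGTG, which reads the same on both strands, was found in windows from 250 bases before to 50 after the start for 3 of the 7 members matched. Counted in bases from the start site, these began at −36 and −18 in Atp6v0b, at −3 in Atp6v0d1 and at −131 in Atp6v1a. The motif was also found for Atp6v0e, beginning 3 bases after the start site, and for no other of the 19 subunit genes matched. Among all 32851 windows of this length, 7.15% hold it, and counted by gene, 8.09% of 27025 genes have it. The longer CLEAR element, which contains CACGTG, was in none of the windows of the subunit genes and in 0.326% of all windows. The genes with the motif include one that was lower in hyperoxia, Atp6v0b, and others that did not pass the threshold, and the windows of Atp6v0c and Atp6v1d do not have these letters.

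Atp6v0c encodes the proteolipid that makes up most of the rotating ring of V0. The gene (ENSMUSG00000024121.13) occupies bases 24163866 to 24169702 of chromosome 17 in GRCm38, minus strand. Its normalized counts, which are reads divided by a size factor for each library, were 7253, 6645 and 7149 in air libraries 1, 2 and 3. Hyperoxia libraries 1, 2 and 3 held 3224, 3108 and 3601, and this order is kept below. All hyperoxia libraries lay far below all air libraries. Air-exposed mice had a mean of 7016 ± 325 (SD, n = 3) and hyperoxia-exposed mice one of 3311 ± 258 (SD, n = 3), 47.2% of the air mean. The log2 fold change was −1.08 (standard error, SE, 0.08), with values from −1.15 to −1.03 under the 16 alternative settings. The gene was chosen for this difference, so these values describe it and support nothing further. Of its 75-base stretches, 9.24% also occur in the pseudogenes Atp6v0c-ps1 and Atp6v0c-ps2, which were not analysed here, and the reads that such copies take or give cannot be told apart.

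Atp6v0b encodes the second proteolipid of the same ring, c″. It occupies bases 117884326 to 117887333 of chromosome 4, minus strand. The libraries held 5327, 5100 and 4616 normalized counts in air and 3572, 4181 and 3474 in hyperoxia. The groups did not overlap, with hyperoxia library 2 nearest to air. The log2 fold change was −0.42 (SE 0.09), and the hyperoxia mean was 74.6% of the air mean. It passed the threshold under all 16 alternatives, from −0.51 to −0.29, the smallest after the correction for length and GC content. The antisense gene Gm12841 shares 11.8% of its exon bases and had a mean of 1.11 normalized counts.

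The remaining V0 members changed less. Atp6v0a1 encodes the large membrane subunit a that is abundant in neurons and lines the path of the protons. Its normalized counts were 26171, 24709 and 23867 in air and 21393, 22970 and 19879 in hyperoxia, and its log2 fold change was −0.22 (SE 0.08). Atp6v0d1, which couples the ring to the central stalk, had 8384, 8846 and 8132 in air and 7409, 7968 and 7010 in hyperoxia, and its log2 fold change was −0.18 (SE 0.07). In both genes each hyperoxia library lay below each air library, and neither passed the threshold. The V0 members other than Atp6v0c all had hyperoxia libraries below air libraries, as did 23.8% of all genes tested. Of them only Atp6v0b passed the threshold, beside 15.6% of all genes called lower, and their median log2 fold change was −0.22. Atp6v0c was left out here because it was chosen for its own difference. Under quantile normalization the value of Atp6v0a1 was −0.08.

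**Figure D1:**
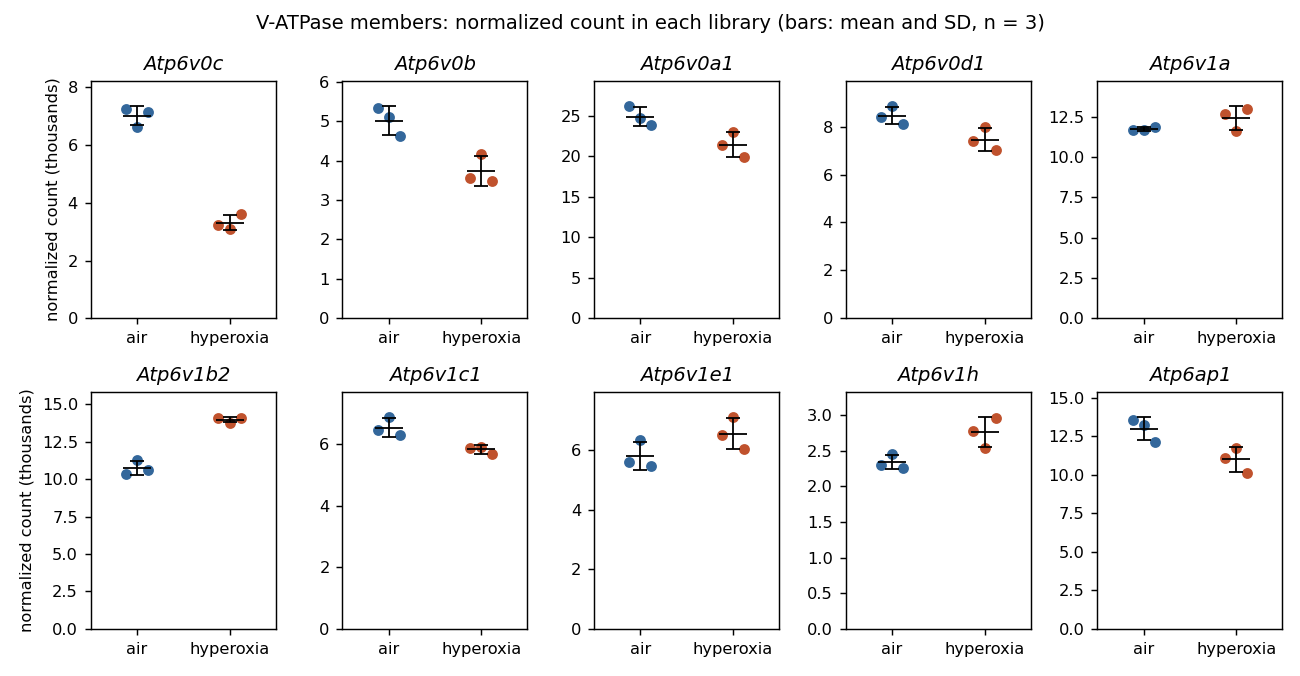
Normalized count divided by 1000, on axes from 0, of each of the 10 V-ATPase members in the 3 air libraries (blue points) and 3 hyperoxia libraries (orange points), with horizontal bars for the mean and vertical bars for the SD. The groups are farthest apart for Atp6v0c, at 7016 in air and 3311 in hyperoxia, while Atp6v1b2 is higher in all 3 hyperoxia libraries and Atp6v1a and Atp6v1e1 overlap.

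The V1 members differed among themselves in direction. Atp6v1b2 (chromosome 8, bases 69088646 to 69113711, plus strand) encodes the B subunit isoform of the brain, which binds nucleotide without being the main catalytic site. It had 10379, 11272 and 10604 normalized counts in air and 14078, 13769 and 14070 in hyperoxia. Every hyperoxia library was higher than every air library, and the 3 hyperoxia libraries lay close together. The log2 fold change was 0.38 (SE 0.07), a 1.30-fold higher mean, past the threshold under all 16 alternatives with values from 0.35 to 0.44.

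Its partner in the ring, the catalytic A subunit Atp6v1a, had 11646, 11674 and 11865 in air and 12645, 11604 and 12994 in hyperoxia. These groups overlapped, since hyperoxia library 2 was lower than every air library, and the log2 fold change was 0.08 (SE 0.07). Within the ring, the mRNA of B was therefore higher past the threshold and that of A was not, with a 95% interval of the A change from −0.08 to 0.24.

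Atp6v1h encodes the regulatory subunit that restrains ATP hydrolysis by V1 that has come off the membrane. Its normalized counts were 2298, 2447 and 2261 in air and 2777, 2534 and 2956 in hyperoxia. The groups did not overlap, though hyperoxia library 2 was close to air library 2. The log2 fold change of 0.24 (SE 0.08) passed the threshold, but only 8 of the 16 alternatives kept this call, and after the correction for length and GC content it was −0.07. At 9.75 kb of merged exons it is the longest of the members.

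Atp6v1e1, a subunit of the peripheral stalks, had 5612, 6352 and 5470 in air and 6504, 7109 and 6050 in hyperoxia. The groups overlapped and the log2 fold change was 0.17 (SE 0.09). Atp6v1c1, the subunit that bridges V1 and V0 and is released when they separate, had 6451, 6868 and 6274 in air and 5883, 5912 and 5662 in hyperoxia. All its hyperoxia libraries were below the air libraries, the log2 fold change was −0.17 (SE 0.07), and it did not pass the threshold. Over the 5 V1 members, 2 were called, both higher, beside 14.9% of all genes called higher. The median log2 fold change of the 5 was 0.17.

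Atp6ap1 encodes the accessory protein Ac45, which takes part in the assembly of V0. Its normalized counts were 13575, 13269 and 12137 in air and 11110, 11768 and 10150 in hyperoxia. The groups did not overlap, and the log2 fold change was −0.24 (SE 0.08). It was the called member nearest to the threshold, and 5 of the 16 alternatives kept the call. The member nearest to it on the other side was Atp6v0a1.

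Over the members, 6 had all hyperoxia libraries below all air libraries and 2 had all above. Without Atp6v0c, which was chosen for its difference, these numbers were 5 and 2. Of all genes tested, 23.8% and 22.3% were separated in these ways. Hyperoxia library 2 weighed most on the number of calls. Without it 8 members were called, 2 higher and 6 lower, where 43.6% of all genes were called, and without any 1 of the other libraries 3 members were called, where 17.1% to 28.0% of all genes were called. With 1 library left out, member calls were most numerous where the share of all genes called was largest. Atp6v0c, Atp6v0b and Atp6v1b2 were the members called with each library left out.

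**Figure D2:**
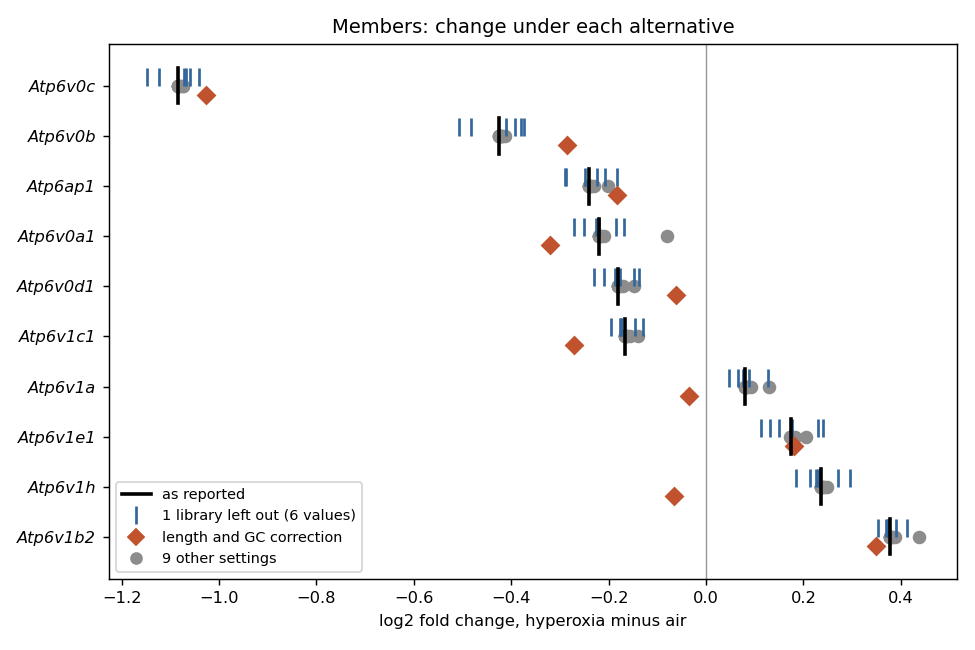
Log2 fold change, hyperoxia minus air, of the 10 members as reported (black lines), with 1 library left out (6 blue marks), after correction for transcript length and GC content (orange diamonds) and under the 9 other settings (grey points). Atp6v0c stays between −1.15 and −1.03, and Atp6v1a and Atp6v1h pass to the other side of 0 only under the length and GC correction.

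The distance of Atp6v0c from the rest was also taken within each library. On the log2 scale, Atp6v0c minus the mean of the other 9 members was −0.17, −0.34 and −0.12 in the air libraries and −1.29, −1.39 and −1.09 in the hyperoxia libraries. The means differed by −1.04. Against the other 3 V0 members alone, the values were −0.54, −0.64 and −0.43 in air and −1.36, −1.56 and −1.12 in hyperoxia, a difference of −0.81. These distances also restate the choice of Atp6v0c and are a description. With each library left out, the difference ranged from −1.13 to −0.98 against the 9 members and from −0.92 to −0.70 against V0.

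The pump has other subunit genes, listed for this comparison though not among the members. Of 15, 14 were in the table and 10 had a mean of at least 10 normalized counts and were tested. Of these 10, none rose and 3 fell by limma, a share near the 30.5% called over all genes, and their median log2 fold change was −0.16. By edgeR and DESeq2 also 0 rose, and at an unadjusted limma p under 0.05 the counts were 1 higher and 5 lower. At that unadjusted threshold, 3744 of all 17778 genes tested were higher and 3850 lower. All p-values below are limma p-values with Benjamini-Hochberg adjustment over all genes tested.

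Atp6v1g2, the brain isoform of the peripheral stalk subunit G, fell most. The gene occupies bases 35233660 to 35238767 of chromosome 17, plus strand. It had 26578, 23823 and 24122 normalized counts in air and 13037, 15940 and 12321 in hyperoxia, and the hyperoxia mean was 55.4% of the air mean. Hyperoxia library 2 was the highest of its group and still far below air. It fell by 0.86 on the log2 scale (SE 0.10, limma adjusted p = 8.02e-04). Of all genes tested, 3.11% fell at least as far. The ubiquitous isoform Atp6v1g1 had 2268, 2308 and 2242 in air and 1889, 2106 and 1866 in hyperoxia and fell by 0.22 on the log2 scale (limma adjusted p = 0.046), a call kept by 6 of the 16 alternatives. Of its 75-base stretches, 12.5% also occur in Gm13453 or Gm12344.

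Atp6v1d, a subunit of the central stalk that turns with the ring, occupies bases 78840725 to 78861638 of chromosome 12, minus strand. It had 9015, 8634 and 7963 normalized counts in air and 5774, 5902 and 5649 in hyperoxia. The hyperoxia libraries lay close together and below all air libraries. It fell by 0.56 on the log2 scale (SE 0.07, limma adjusted p = 9.80e-04) to 67.6% of the air mean. Atp6v1d and Atp6v1g2 were called under all 16 alternatives. The other central stalk subunit tested, Atp6v1f, had a log2 fold change of 0.03 (limma adjusted p = 0.83), so the members of the stalk did not have like values.

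The other 7 subunit genes tested did not pass the threshold. Log2 fold changes were −0.25 for Tcirg1 (limma adjusted p = 0.057) and −0.19 for Atp6v0a2 (limma adjusted p = 0.058), both isoforms of subunit a, known from osteoclasts and the Golgi. They were −0.14 for Atp6v0e2 (limma adjusted p = 0.28) and 0.02 for Atp6v0e (limma adjusted p = 0.90), the isoforms of the small subunit e. Atp6ap2, the accessory protein also called the prorenin receptor, had 0.08 (limma adjusted p = 0.37). Atp6v1c2, an isoform of subunit C known from kidney and lung, had 0.61 (SE 0.25, limma adjusted p = 0.090) with 41.4, 42.7 and 24.6 normalized counts in air and 59.2, 57.7 and 47.3 in hyperoxia. Atp6v0a4, Atp6v0d2, Atp6v1b1 and Atp6v1e2, known mainly from kidney, bone or testis, had means below 10 and were not tested. Atp6v1g3 was not analysed here.

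A related gene, Atp6ap1l, was singled out after its values were seen. It is named for its likeness to Atp6ap1, and its counts were low. They were 25.4, 26.5 and 17.5 in air and 119, 118 and 63.7 in hyperoxia, so that all hyperoxia libraries were higher. It rose by 2.04 on the log2 scale (SE 0.28, limma adjusted p = 0.0013), opposite in sign to Atp6ap1, and was called under all 16 alternatives.

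**Figure D3:**
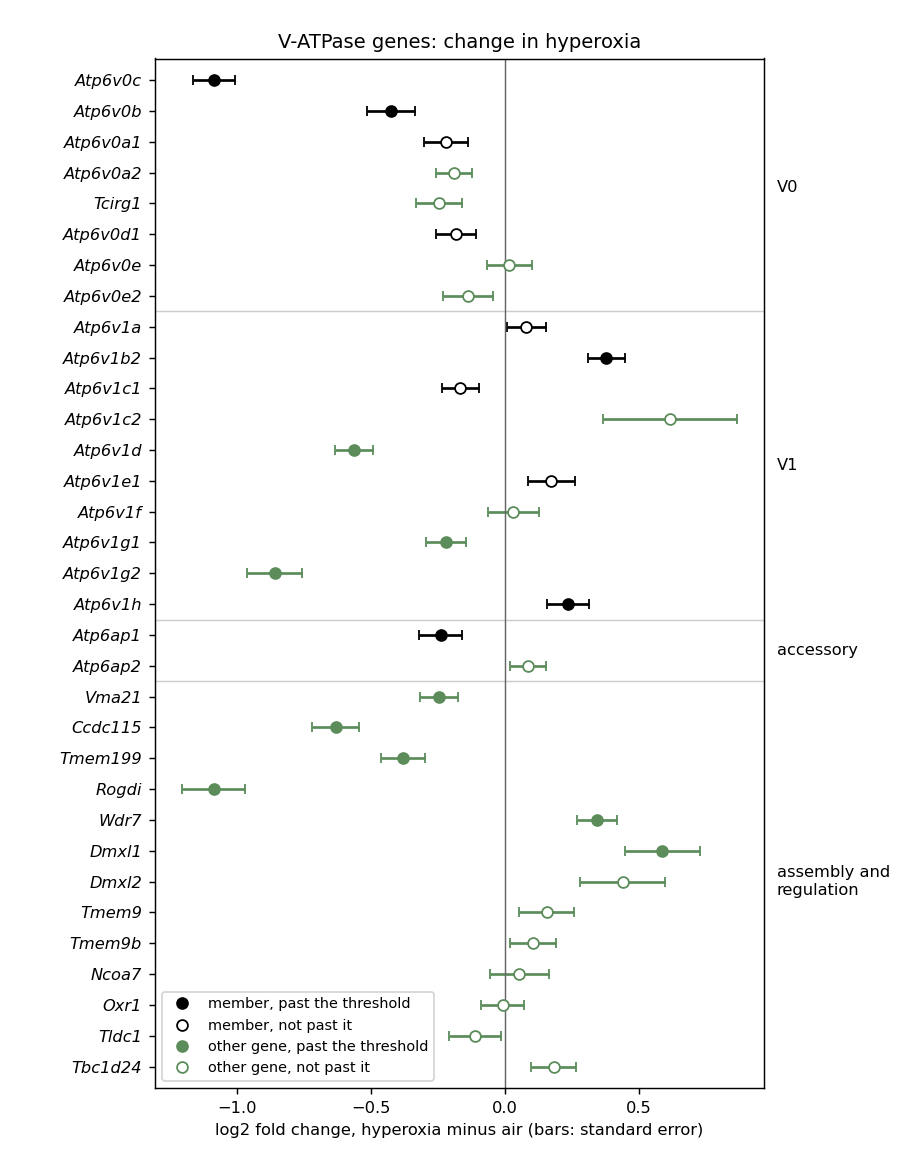
Log2 fold change, hyperoxia minus air, with its standard error, of the V-ATPase members (black) and of the other genes of the pump and of its assembly and regulation (green), grouped by sector. Filled points passed the threshold. Atp6v0c at −1.08, Rogdi at −1.09 and Atp6v1g2 at −0.86 lie farthest to the left, and Atp6v1b2 at 0.38 is the highest of the called subunits.

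Between genes, levels were compared as normalized counts per kb of merged exons. These exons take in every annotated transcript of a gene, and the length of the mRNA present was not measured. In air, the order of the members from high to low was Atp6v0d1, Atp6ap1, Atp6v0a1, Atp6v0b, Atp6v0c, Atp6v1b2, Atp6v1a, Atp6v1e1, Atp6v1c1 and Atp6v1h. Atp6v0d1 had a level of 4715 per kb and Atp6v1h 240 per kb. Atp6v0c, at 2073 per kb, was 5th, and its range over the air libraries overlapped that of Atp6v1b2, as did those of Atp6v1b2 and Atp6v1a. In hyperoxia, Atp6v0c, at 978 per kb, was 9th and below every member but Atp6v1h, and Atp6v1b2, at 2634 per kb, was 4th. There, the ranges of the neighbours Atp6ap1 and Atp6v0a1, Atp6v1a and Atp6v0b, Atp6v0b and Atp6v1e1, and Atp6v1c1 and Atp6v0c overlapped. Among the 20 subunit genes with a level, Atp6v1g2 was highest in air at 9897 per kb and 2nd in hyperoxia at 5484 per kb, behind Atp6v0e2 at 6213 per kb. The ranges of Atp6v1g2 and Atp6v0e2 over the hyperoxia libraries overlapped, so these genes were not separated there.

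**Figure D4:**
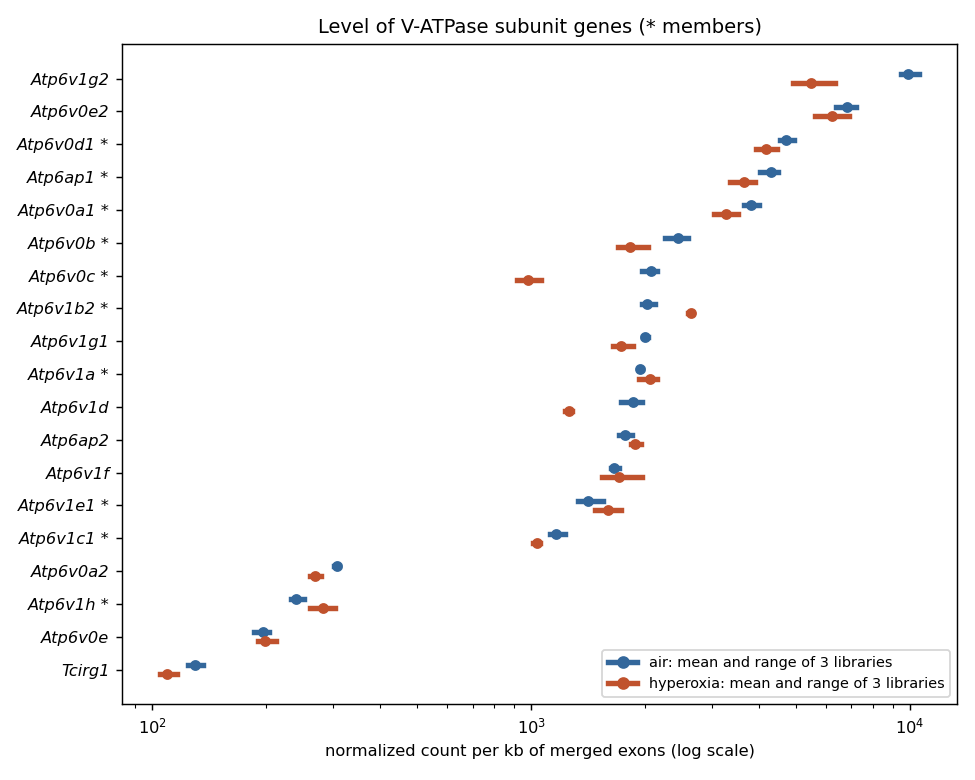
Normalized count per kb of merged exons, on a log axis, of 19 V-ATPase subunit genes (asterisks mark the members) in air (blue) and hyperoxia (orange), with points for the mean and lines for the range of 3 libraries. Atp6v0c moves from 2073 to 978 per kb and leaves the group of V1 subunits near 2000 per kb in air, and Atp6v1c2, at 16.7 per kb in air, is not drawn.

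Proteins that assemble the pump or control the joining of its sectors were also compared. Of 14 listed genes, 13 were tested, of which 2 rose and 4 fell. Over all genes tested, 14.9% were called higher and 15.6% lower. Rogdi, a partner of the rabconnectin proteins that load V1 onto V0, had 13849, 12364 and 11987 normalized counts in air and 5542, 7265 and 5332 in hyperoxia. All hyperoxia libraries were far below air, at 47.5% of the air mean, and the change of −1.09 on the log2 scale passed the threshold (SE 0.12, limma adjusted p = 5.16e-04). Its fall was near the size of that of Atp6v0c, and it was called under all 16 alternatives.

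The other genes of the list that fell were Ccdc115, Tmem199 and Vma21, which act in the assembly of V0 in the endoplasmic reticulum. Ccdc115 had 1304, 1298 and 1120 in air and 756, 830 and 812 in hyperoxia and fell by 0.63 on the log2 scale (limma adjusted p = 0.0013). Its partner Tmem199 had 1090, 1157 and 1026 in air and 836, 885 and 792 in hyperoxia and fell by 0.38 (limma adjusted p = 0.0084). The chaperone Vma21 had 2785, 2598 and 2615 in air and 2374, 2191 and 2177 in hyperoxia and fell by 0.25 (limma adjusted p = 0.027). The groups overlapped in none of these genes. Ccdc115 was called under all 16 alternatives, Tmem199 under 15, with a limma adjusted p of 0.051 without air library 2, and Vma21 under 11. Of the 75-base stretches of Ccdc115, 12.2% also occur in Gm7774 or Gm28306.

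Of the rabconnectin genes Wdr7, Dmxl1 and Dmxl2, the first and second rose. Wdr7 had 5238, 5268 and 5441 in air and 6971, 6192 and 7094 in hyperoxia and rose by 0.34 on the log2 scale (limma adjusted p = 0.0081). Dmxl1 had 1113, 1189 and 1287 in air and 1829, 1432 and 2205 in hyperoxia and rose by 0.59 (limma adjusted p = 0.012). Both were higher in every hyperoxia library, and hyperoxia library 2 was the lowest of its group in each. The call of Dmxl1 was lost without air library 1 (limma adjusted p = 0.061) and in limma without the trend (adjusted p = 0.051). Under the length and GC correction the log2 fold changes were 0.20 for Dmxl1 and 0.18 for Wdr7. Dmxl2, named after its values were seen, had 0.44 (limma adjusted p = 0.064) with overlapping groups. The V-ATPase loading proteins therefore moved in both directions, Rogdi lower and Wdr7 and Dmxl1 higher.

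The organelles that the pump acidifies gave smaller or mixed differences. Of 13 genes for counter-ion transport, 3 rose and 1 fell, beside 14.9% of all genes called higher and 15.6% lower. Slc9a7, a sodium proton exchanger of the Golgi, rose by 1.58 on the log2 scale (limma adjusted p = 0.0032) from 80.0, 85.5 and 111 normalized counts in air to 301, 171 and 405 in hyperoxia. The endosomal chloride proton exchangers Clcn3 and Clcn5 rose by 0.67 (limma adjusted p = 0.0017) and 0.65 (limma adjusted p = 0.0091). After the length and GC correction these values were 0.35 and 0.43, and both genes were called under all 16 alternatives. The lysosomal cation channel Mcoln1 fell by 0.23 (limma adjusted p = 0.040), and quantile normalization left 3 higher and 0 lower. The 3 exchangers were higher in every hyperoxia library than in any air library.

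Of 25 lysosomal hydrolases and membrane proteins, 6 were called, 5 of them lower, and the median log2 fold change was −0.10. The share called over all genes was 30.5%, with 15.6% lower. Ctsa, which forms a complex with the sialidase Neu1, fell by 0.49 (limma adjusted p = 0.0023), Neu1 by 0.46 (limma adjusted p = 0.0027) and the peptidase Tpp1 by 0.44 (limma adjusted p = 0.0027). Under quantile normalization 6 were called, 4 of them lower. The changes of Ctsa, Neu1 and Tpp1 were smaller than that of Atp6v0c, and most of the list did not pass the threshold.

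Among 15 genes for docking mTORC1 on lysosomes, which requires the V-ATPase, 2 rose and 2 fell. Of all genes, 14.9% were called higher and 15.6% lower. The GTPases Rragd and Rragc rose by 0.35 (limma adjusted p = 0.017) and 0.25 (limma adjusted p = 0.024). The Ragulator subunit Lamtor2 fell by 0.32 (limma adjusted p = 0.038) and the transcription factor Tfe3, of the family that binds CACGTG, by 0.25 (limma adjusted p = 0.030). Without air library 1 none of the 4 was called.

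Of 17 synaptic vesicle proteins and transporters that use the proton gradient, 3 rose and 4 fell. The shares over all genes were 14.9% higher and 15.6% lower. Slc17a6, the vesicular glutamate transporter VGLUT2, rose by 1.72 (limma adjusted p = 1.15e-04), from 630, 555 and 593 normalized counts in air to 2037, 2186 and 1675 in hyperoxia. Slc17a7, VGLUT1, fell by 0.34 (limma adjusted p = 0.012), from 57503, 56902 and 54890 to 44199, 43219 and 46732. The paper gives the mRNA of VGLUT1 as higher in hyperoxia. Syn1 fell by 0.48 (limma adjusted p = 0.0043) and Vamp2 by 0.37 (limma adjusted p = 0.025). Sv2c rose by 0.52 (limma adjusted p = 0.0088), and the acetylcholine transporter Slc18a3, at 4.69 normalized counts on average in air and 16.3 in hyperoxia, rose by 1.57 (limma adjusted p = 0.026). Under quantile normalization 6 of these genes were called higher and 1 lower. At that setting Slc17a7 had −0.11 and Vamp2 −0.10, and neither was called, while Syn1 was called under all 16 alternatives. Without air library 1 or 2, 3 were called, 2 higher and 1 lower.

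Around Atp6v0c on chromosome 17, none of the exons of another gene overlapped its own. On one side, Amdhd2, with a gap of 99 bases, had a log2 fold change of −0.20 (limma adjusted p = 0.14). Beyond it, Pdpk1 rose by 0.43 (limma adjusted p = 0.021). On the other side, Tbc1d24, with a gap of 5728 bases, had 0.18 (limma adjusted p = 0.13). Beyond that gene, 1600002H07Rik had −0.28 (limma adjusted p = 0.061). None of these 4 nearest tested protein-coding genes passed the threshold as lower. Tbc1d24 also binds the V-ATPase and was counted with the regulation genes.

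Over the 6 libraries, the genes whose log2 values were most like those of Atp6v0c were Lace1, Kcnab3, Safb2, Adgrb2 and Rasgef1a, with Pearson r from 0.9985 to 0.9995. The 6 points share the difference between the groups, and 307 of 17777 genes had an r above 0.98. Among the subunits, r was 0.96 for Atp6v1d, 0.93 for Atp6v1g2 and −0.98 for Atp6v1b2. In V0 it was 0.93 for Atp6v0a2, 0.89 for Tcirg1 and 0.86 for Atp6v0b.

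Markers of cell types were read beside these values, where 14.9% of all genes were called higher and 15.6% lower. The hippocampus is a mixture of cells, and in bulk tissue fewer cells of a type and less RNA per cell cannot be told apart. Of 8 markers of hippocampal neurons, all were measured and 3 fell, and their summed normalized counts were 119514 to 128070 in air and 78382 to 87919 in hyperoxia. General neuronal markers gave 3 higher and 3 lower of 8, with sums of 175601 to 181193 and 174429 to 186176. Of 7 oligodendrocyte markers, 6 fell, with sums of 216995 to 329682 in air and 148914 to 181915 in hyperoxia. Astrocyte sums were 169966 to 179284 and 208517 to 234483, with 3 of 7 higher and 1 lower. Most of this rise came from Slc1a2, with a mean of 104640 in air and 149380 in hyperoxia. Aqp4 and Aldh1l1 were also called higher and S100b lower, while Gfap, Slc1a3 and Gja1 did not pass the threshold. Microglial markers gave 2 of 7 higher, with sums of 11935 to 12226 in air and 12230 to 13834 in hyperoxia. Endothelial markers gave 3 of 6 higher and 1 lower, with sums of 6572 to 7023 in air and 7604 to 8702 in hyperoxia. Choroid plexus sums were 544 to 1415 in air and 489 to 8199 in hyperoxia, with the top in hyperoxia library 3. Each marker was above 0 in at least 1 library. Most of the drop in the hippocampal neuron sum came from Nrgn, with a mean of 69060 in air and 37238 in hyperoxia, while 5 of the 8 did not pass the threshold and Dkk3 had 7242 and 8062. The sums of hippocampal neuron and oligodendrocyte markers were lower in the same libraries as Atp6v0c, and their part in the V-ATPase values was not tested. Without hyperoxia library 3 the log2 fold change of Atp6v0c was −1.15.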

How the data were processed

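RNA from the left hippocampus of 6 mice was made into strand-specific polyA libraries and sequenced as 75 bp paired ends. The deposited signal of a gene is its reads after the authors scaled each library with a DESeq2 size factor. Submitters' processing notes name FastQC, STAR 2.5.3a, HTSeq and DESeq2. Genome build, annotation and strand setting of the counting: not given in the sources used here. A second deposited table holds the authors' own comparison (fold changes and p-values) and was not used. Column numbers 1 to 3 are not animal numbers, so each column was a replicate of its group. The labels name separate animals, without litter, sex or batch. Value columns without a group numbered 0.

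All values lay within 0.01 of whole multiples of 1 read, 100% in each library, which gave 30384052 to 38746972 reads on genes per library. The 10 most abundant genes held 10.5% to 10.9% of the reads in air and 8.21%, 10.4% and 7.74% in hyperoxia libraries 1, 2 and 3. The test used the 17778 genes whose mean was 10 or more, on log2(value + 1), hyperoxia minus air, in limma 3.58.1 (R 4.3.3, trend option on). Calls had a Benjamini-Hochberg adjusted p under 0.05. This scale understates the change of low genes. On recovered reads, the count tests edgeR 4.0.16 (quasi-likelihood, TMM) and DESeq2 1.42.0 were alternatives and called 5501 and 5611 genes, against 5425. Also tried were a pseudocount of 0.5 or 5, leaving out the filter, a minimum mean of 50, quantile and TMM scaling, no trend, a correction for merged exon length and GC content (mgcv 1.9.3) and each library left out. The fit was tested on simulated data. Python 3.11.15 with pandas 2.3.3, scipy 1.17.1 and numpy 2.4.6 was used for tables.

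Members and gene lists were chosen with earlier results of these data known. Genes named were the members, all other subunits, the 3 called genes that rose most and the 3 that fell most in each other list, the 2 nearest tested protein-coding genes on each side of Atp6v0c, and the 5 with the highest Pearson r with it. A gene that this rule names is not reported here. Positions and exon lengths came from GENCODE M21 on GRCm38, which held 99.68% of the identifiers. Meak7 is Tldc1 there. Protein sequences were not used here.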

Additional observations from a re-analysis of the deposited data

How the results depend on the processing

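Atp6v0b, Atp6v1b2, Atp6v1d and Atp6v1g2 were called in the same direction under all 16 alternatives. Over the 10 members, 135 of the values under an alternative kept direction and call, 18 lost the call, 5 gained it and 2 changed sign. The changes of sign were Atp6v1a at −0.035 and Atp6v1h at −0.066, both under the length and GC correction, and the cause was not tested. The 5 called members became 3 with no filter on low values and 3 with limma without the trend, and 3 to 8 with 1 library left out, the 8 without hyperoxia library 2. The 3 called other subunits became 5 at a mean of at least 50 and 2 to 6 with 1 library left out. The share of all genes called, 30.5% as reported, changed as well. It was 21.3% with no filter, 23.8% in limma without the trend and 36.5% at a mean of at least 50. With 1 library left out it was 17.1% to 43.6%, the highest without hyperoxia library 2. The 6 called lysosomal genes became 4 to 10, the 7 called vesicle genes 3 to 9 and the 4 called mTORC1 docking genes 0 to 6 with 1 library left out, the highest of each without hyperoxia library 2, and the docking genes 0 with limma without the trend. The 2 ratios of Atp6v0c kept their sign under all 16 alternatives. For the named genes that are no members, the alternatives were added after seeing the data: 412 values kept the call and 83 lost it. No paired analysis was possible because the labels give the groups no shared replicate number and the column numbers name no animal. Small changes, such as those of Atp6ap1 and Atp6v1h, lost their call when single libraries were left out. Depth was not varied, and its part was not tested.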
